A study of Mus musculus with 18 samples.

Results

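The Cyp2c genes encode liver cytochrome P450 enzymes that turn arachidonic acid, linoleic acid and other polyunsaturated fatty acids into epoxides and hydroxylated products, and some of them act on drugs, steroids, retinoids or bile acids. The family was followed here as 10 listed mouse genes: Cyp2c29, Cyp2c37, Cyp2c38, Cyp2c39, Cyp2c40, Cyp2c44 (named Cyp2c23 in the gene table used), Cyp2c50, Cyp2c54, Cyp2c55 and Cyp2c70. Each gene was read from the probe set annotated to it alone, the brightest over 18 arrays where there was a choice. Of the 10 listed genes 9 had such a probe set, 1 each, and 0 Cyp2c probe sets carried several gene symbols. Cyp2c40 was not analysed here because none of the probe sets used was named for it. Its close relative Cyp2c68 had a probe set named for that gene alone, and whether that probe set also reads Cyp2c40 was not tested. Cyp2c39 lay below the array median on all 18 arrays, so 8 of the 10 listed genes were tested, among 12578 genes tested in all.

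Livers of male mice aged 12 weeks were profiled in 6 groups of genotype and diet, with 3 arrays per group. The knockout mice were Alb-Cre+/-/POR-lox+/+, in which a Cre recombinase under the albumin promoter removes the floxed P450 reductase gene Por from hepatocytes while other liver cells keep it, and the controls were Alb-Cre-/-/POR-lox+/+, which carry the same floxed alleles and no Cre. From 4 weeks of age both genotypes ate for 8 weeks a synthetic diet. Its added fat was lard, canola oil or a fish/fungal mixture of menhadin oil and ARASCO oil, a fungal oil rich in arachidonic acid, and the mice were fasted for 4 h before sampling. All diets also held cholesterol and sodium cholate, and the fat content is given as 7% in the sample labels and 6% in the series text. Every array carried RNA pooled from 3 mice, so a group of 3 pools stands for 9 mice, and each value below is the deposited log2 expression value of a pool.

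Microsomal P450 enzymes need P450 reductase to pass them electrons from NADPH, so a hepatocyte without the reductase still makes P450 messenger RNA and protein but loses most of the activity. Many Cyp2c genes are switched on by the nuclear receptors CAR (Nr1i3) and PXR (Nr1i2), which sense drugs, bile acids and fatty acid products, and their basal expression in hepatocytes depends on HNF4alpha. The epoxides that the enzymes make are cleared by epoxide hydrolases, and the fatty acids they act on are freed from membranes by phospholipases.

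The genes lie together on mouse chromosome 19. From Cyp2c55 to Cyp2c70 the RefSeq annotation of GRCm38.p6 lists 14 protein-coding genes, 0 of which are outside the Cyp2c family. Cyp2c23 lies apart, with 52 protein-coding genes between it and Cyp2c70. RefSeq promoter windows, of 250 bases before and 50 after the start, were matched for 8 of the 10 listed genes, all but Cyp2c54 and Cyp2c23. The 200 bases just before the start are printed 5′ to 3′ for 6 genes: Cyp2c55, whose transcript differed most between genotypes; Cyp2c29 beside its close relative Cyp2c38; Cyp2c37 beside its close relative Cyp2c50; and Cyp2c70, the bile acid enzyme of the family. Capitals mark each CAAAGTC, a core sequence bound by HNF4alpha, and each TATAAA, the letters of a TATA box, with TTTATA where the match is on the other strand.
Cyp2c55, at chr19:39006819-39007018 on the plus strand: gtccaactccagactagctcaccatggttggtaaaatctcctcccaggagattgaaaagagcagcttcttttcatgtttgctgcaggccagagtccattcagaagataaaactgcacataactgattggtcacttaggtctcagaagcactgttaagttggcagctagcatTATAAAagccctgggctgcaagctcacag
Cyp2c29, at chr19:39286885-39287084 on the plus strand: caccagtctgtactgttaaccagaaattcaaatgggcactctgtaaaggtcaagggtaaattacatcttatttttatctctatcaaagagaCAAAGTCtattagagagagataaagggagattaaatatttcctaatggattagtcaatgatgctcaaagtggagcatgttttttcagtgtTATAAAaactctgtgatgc
Cyp2c38, at chr19:39463076-39463275 on the minus strand: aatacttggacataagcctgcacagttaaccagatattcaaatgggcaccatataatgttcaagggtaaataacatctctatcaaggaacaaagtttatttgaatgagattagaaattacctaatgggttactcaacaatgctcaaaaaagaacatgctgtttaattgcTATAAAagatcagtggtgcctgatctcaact
Cyp2c37, at chr19:39992224-39992423 on the plus strand: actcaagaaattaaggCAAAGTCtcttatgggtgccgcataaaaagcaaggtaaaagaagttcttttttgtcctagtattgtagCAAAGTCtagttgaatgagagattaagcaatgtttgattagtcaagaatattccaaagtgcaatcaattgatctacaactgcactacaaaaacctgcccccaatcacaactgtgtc
Cyp2c50, at chr19:40089479-40089678 on the plus strand: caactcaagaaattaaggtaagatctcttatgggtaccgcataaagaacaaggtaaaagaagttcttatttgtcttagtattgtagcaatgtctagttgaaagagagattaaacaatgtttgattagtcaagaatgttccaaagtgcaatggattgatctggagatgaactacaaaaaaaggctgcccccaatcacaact
Cyp2c70, at chr19:40187287-40187486 on the minus strand: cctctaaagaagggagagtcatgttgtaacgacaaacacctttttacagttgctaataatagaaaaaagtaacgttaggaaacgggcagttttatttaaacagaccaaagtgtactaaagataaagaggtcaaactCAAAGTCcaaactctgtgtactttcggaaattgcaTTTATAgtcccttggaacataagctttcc

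Among these windows of 300 bases, those of Cyp2c37 and Cyp2c50 were the same at 88.3% of aligned positions and those of Cyp2c29 and Cyp2c38 at 75.3%. The window of Cyp2c55 matched the other Cyp2c windows at 48.2% to 56.8% and that of Cyp2c70 at 47.7% to 52.7%, against a median of 58.5% over 91 pairs. CAAAGTC was found, on either strand, in 6 of 9 windows of listed genes (Cyp2c39 has a pair of windows) and in 4.44% of 32851 mouse promoter windows. It stood 109 bases before the start in Cyp2c29, 64 in Cyp2c70, and at both 184 and 116 in Cyp2c37. These letters were not in the windows of Cyp2c55, Cyp2c38 and Cyp2c50. TATAAA was in 6 of 9 windows, against 13.6% of all windows, and began 29 bases before the start in Cyp2c55, 19 in Cyp2c29 and 31 in Cyp2c38. The other 3 matches were on the other strand in Cyp2c70 (29 bases before the start), 3 bases before the start in 1 window of Cyp2c39, and 40 bases after it in Cyp2c40. The nuclear receptor core AGGTCA was in 3 of 9 windows (16.3% of all) and AGTTCA in 3 of 9 (14% of all). The direct repeat of these cores known as DR4, in any of the 4 pairings of AGGTCA and AGTTCA and bound by CAR with its partner RXR, was in 0 of 9 windows, and the most frequent pairing was in 0.0152% of all. The FOXA core TGTTTAC was in 3 of 9 windows (3.65% of all). All motifs were searched on both strands as exact letters, were chosen after the sequences had been seen, and describe the windows only.

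Across the series, array medians ran from 5.229 to 5.286 and arrays of a group correlated at 0.9928 to 0.9969. Hepatocyte markers were bright in every pool (mean over 8 markers 13.67 to 14.01) and 0 of 8 passed the limma test between genotypes, averaged over diets, as 0 had an unadjusted p under 0.05. The deleted gene Por was not analysed here, and no check of the genotype labels was made on it. Macrophage markers were higher in the knockout in 8 of 16 genes (Cd68, C1qa, C1qb, Lyz2, Ctss, Itgax, Gpnmb and Mmp12) and pericentral markers in 3 of 13 (Oat, Rhbg and Cyp1a2). Over all genes tested 3.82% were higher and 0.755% lower. Of the other marker lists in the same test, stellate cells had 1 of 11 higher (Timp1), lymphocytes 1 of 5 lower (Ighm) and pancreas 1 of 4 lower (Cela1). None passed for periportal hepatocytes (0 of 9, 2 at an unadjusted p under 0.05), endothelium (0 of 10, 2), bile duct (0 of 3, 0), kidney (0 of 3, 0) and fat cells (0 of 1, 0). In the same test 2262 of all 12578 genes had an unadjusted p under 0.05. In pooled liver RNA, a change in the number of cells of a type and a change in RNA per cell cannot be told apart.

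The first question was which Cyp2c genes differ between livers with and without hepatic P450 reductase, taken as the mean of the 3 differences within a diet. 5 of the 8 tested genes rose and 0 fell. Cyp2c55 rose most, and Cyp2c54, Cyp2c37, Cyp2c29 and Cyp2c50 rose by 1.33-fold to 1.66-fold. Cyp2c38, Cyp2c23 and Cyp2c70 did not pass the test. Over all genes tested, 3.82% rose (480 genes) and 95 genes fell, or 396 and 163 with quantile normalization repeated. The median log2 difference was 0.48 over the 8 Cyp2c genes and -0.0047 over all genes. Arrays of the genotypes did not overlap within any of the 3 diets for 4 of the 8, Cyp2c29, Cyp2c37, Cyp2c50 and Cyp2c55, where 0.930% of all genes were higher without overlap. All 5 calls were kept under all 27 alternatives run for this comparison, each array left out in turn included. Whether a probe set also binds transcripts of a close relative in this family was not tested, since probe sequences were not used here.

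**Figure D1:**
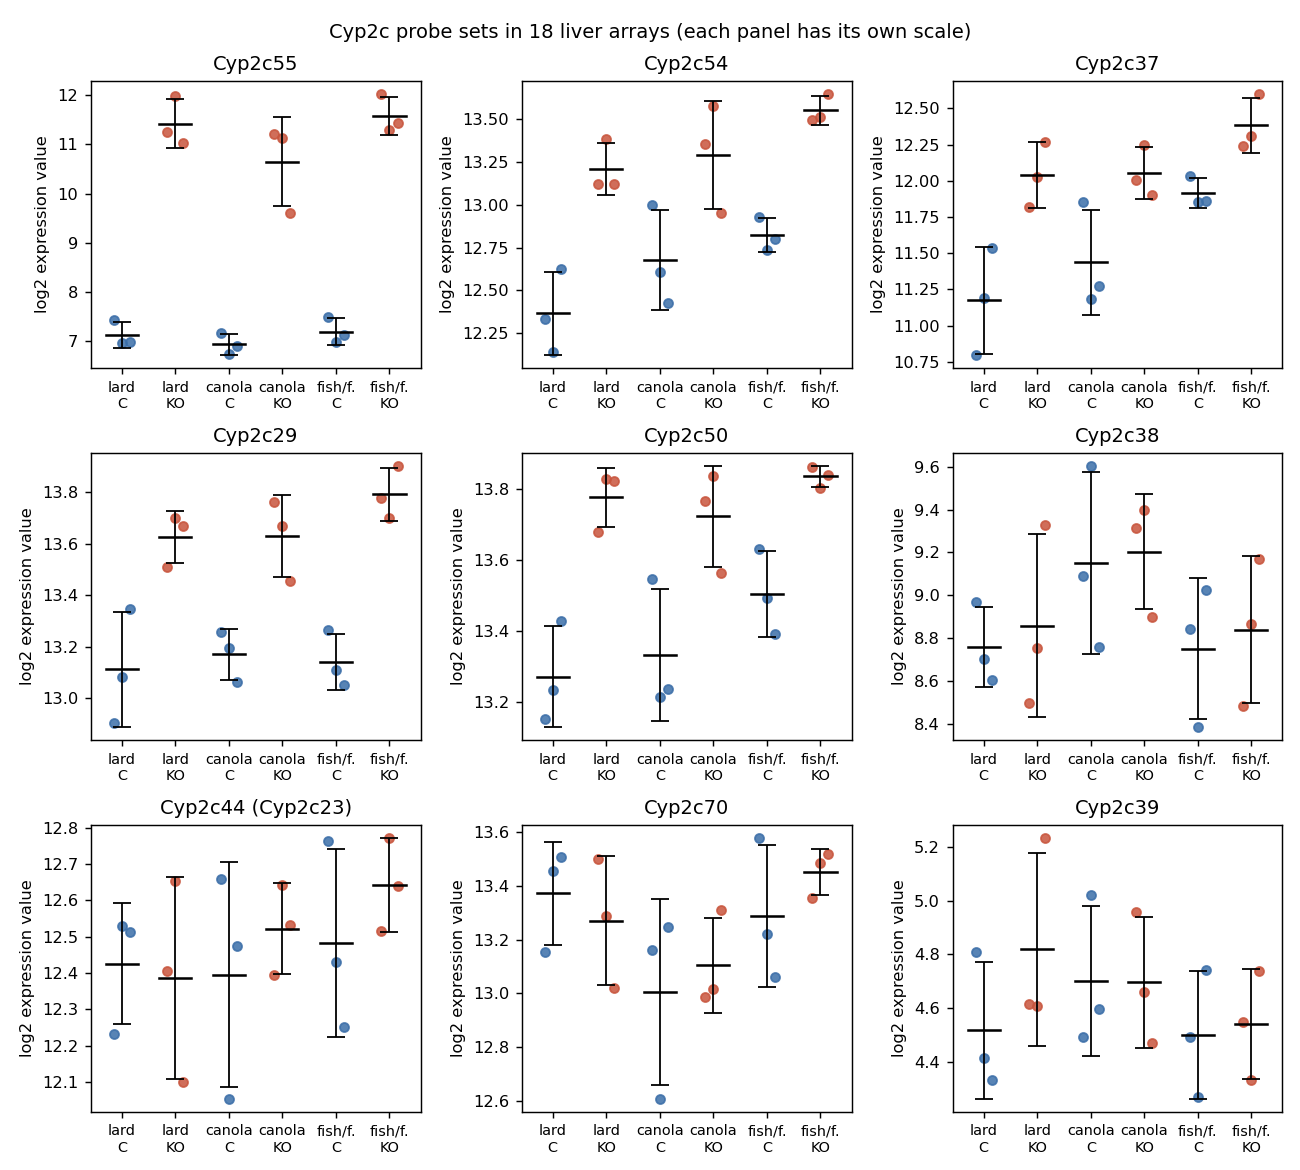
Log2 expression values of 9 Cyp2c probe sets in the 6 groups (C, control, blue; KO, knockout, red; fish/f., the fish/fungal diet); points are pools of 3 mice, bars the mean and SD of 3 pools, and each panel has its own scale. The means of Cyp2c55 differ between genotypes by 3.72 or more on every diet, while the genotypes overlap within every diet for Cyp2c38, Cyp2c23 and Cyp2c70.

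Cyp2c55, an arachidonic acid hydroxylase known from liver and gut and inducible through CAR and PXR, was low in every control pool and high in every knockout pool. On lard the 3 control pools were at 7.42, 6.96 and 6.99 and the 3 knockout pools at 11.24, 11.99 and 11.03. On canola oil the control pools were at 7.16, 6.73 and 6.90 and the knockout pools at 11.21, 11.14 and 9.60. On fish/fungal oil they were at 7.49, 6.97 and 7.11 and at 12.02, 11.29 and 11.43. All 9 knockout pools thus stood above the highest control pool (7.49), the nearest being knockout canola replicate 3. Such a separation of all 9 knockout from all 9 control pools, knockout higher, was found in 2 of the 8 Cyp2c genes and in 0.310% of all genes. The difference was 4.30 ± 0.34 on lard (SE, 19.7-fold, adjusted p = 4.56e-06), 3.72 ± 0.34 on canola oil (13.2-fold, 4.26e-05) and 4.39 ± 0.34 on fish/fungal oil (21.0-fold, 2.98e-06). Without knockout canola replicate 3 the canola difference was 4.24. By size of the averaged difference Cyp2c55 ranked 2 among the 12578 genes, in each diet alone as well. In the order of group means the 3 control groups came first, from canola (6.93 ± 0.22 SD, n = 3) to fish/fungal oil (7.19 ± 0.27), and neighbours among them did not differ beyond their spread. The knockout groups followed from canola (10.65 ± 0.91) through lard (11.42 ± 0.50) to fish/fungal oil (11.58 ± 0.39), again with overlapping neighbours.

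Cyp2c29, an abundant arachidonic acid epoxygenase of hepatocytes around the central vein, was the other listed gene tested for which all 9 knockout pools exceeded all 9 control pools. Its control pools were at 12.90, 13.08 and 13.35 on lard, 13.26, 13.20 and 13.06 on canola oil, and 13.26, 13.11 and 13.05 on fish/fungal oil. Its knockout pools were at 13.51, 13.70 and 13.67 on lard, 13.76, 13.67 and 13.46 on canola oil, and 13.78, 13.70 and 13.90 on fish/fungal oil. The highest control pool and the lowest knockout pool lay close together, while diets within a genotype overlapped. Averaged over diets Cyp2c29 rose by 0.54 ± 0.06 (SE, 1.46-fold, limma adjusted p = 6.04e-05). In the order of means the 3 control groups (13.11 to 13.17) did not differ beyond their spread, and the step of 0.46 from control canola to knockout lard was larger than the SD of either group.

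Cyp2c50, an epoxygenase of the same gene cluster, followed a course like that of Cyp2c29. Control pools were at 13.15, 13.23 and 13.43 on lard, 13.55, 13.21 and 13.23 on canola oil, and 13.63, 13.49 and 13.39 on fish/fungal oil. Knockout pools were at 13.68, 13.83 and 13.82 on lard, 13.77, 13.84 and 13.56 on canola oil, and 13.86, 13.80 and 13.84 on fish/fungal oil. Within every diet the knockout pools were all above the control pools, and across diets 8 of 9 knockout pools exceeded the highest control pool, knockout canola replicate 3 being the exception. Cyp2c50 rose by 0.41 ± 0.06 (1.33-fold, adjusted p = 0.000351).

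Cyp2c54, which epoxidizes arachidonic and linoleic acid, rose by 0.73 ± 0.09 (1.66-fold, adjusted p = 0.000172). Control pools were at 12.33, 12.14 and 12.62 on lard, 13.00, 12.61 and 12.43 on canola oil, and 12.93, 12.74 and 12.80 on fish/fungal oil. Knockout pools were at 13.12, 13.39 and 13.12 on lard, 13.35, 13.58 and 12.95 on canola oil, and 13.50, 13.52 and 13.65 on fish/fungal oil. The genotypes overlapped on canola oil alone among the diets, where control replicate 1 (13.00) was above knockout replicate 3 (12.95). The means were ordered from control lard (12.36 ± 0.24) to knockout fish/fungal oil (13.55 ± 0.08), with a gap of 0.39 between the highest control group and the lowest knockout group that exceeded both SDs.

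Cyp2c37, best known as an arachidonic acid hydroxylase, rose by 0.65 ± 0.11 (1.57-fold, adjusted p = 0.00169). Control pools were at 10.80, 11.19 and 11.54 on lard, 11.85, 11.18 and 11.27 on canola oil, and 12.04, 11.85 and 11.86 on fish/fungal oil. Knockout pools were at 11.82, 12.03 and 12.27 on lard, 12.01, 12.25 and 11.90 on canola oil, and 12.24, 12.31 and 12.60 on fish/fungal oil. Within each diet the genotypes did not overlap, but 4 knockout pools of lard and canola oil were no higher than the top control pool on fish/fungal oil (12.04), so that 5 of 9 stood above it. Mean levels of control fish/fungal oil (11.92 ± 0.10), knockout lard (12.04 ± 0.23) and knockout canola oil (12.05 ± 0.18) did not differ beyond their spread.

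Cyp2c38, an epoxygenase close to Cyp2c29 in sequence, ranged from 8.38 to 9.60 in controls (median 8.84) and from 8.48 to 9.40 in knockouts (median 8.90). The averaged difference was 0.08, with a 95% interval from -0.21 to 0.38, and the genotypes overlapped on every diet. Cyp2c23, the gene long called Cyp2c44, encodes an epoxygenase of liver, kidney and vessels and ranged from 12.05 to 12.76 in controls and from 12.10 to 12.77 in knockouts. Its difference was 0.08 (95% interval -0.11 to 0.28). Cyp2c70, which makes the muricholic acids that set mouse bile apart from human bile, ranged from 12.61 to 13.58 in controls and from 12.99 to 13.52 in knockouts, a difference of 0.05 (-0.15 to 0.25). For Cyp2c23 and Cyp2c70 these intervals leave room for a change of up to 0.28 on the log2 scale, below the estimate for each of the 5 genes that rose. Neighbouring groups overlapped throughout for all 3 genes, Cyp2c38 being highest on canola oil in both genotypes (9.15 ± 0.43 and 9.20 ± 0.27). The dim gene Cyp2c39, an epoxygenase that also acts on retinoic acid, lay between 4.27 and 5.23 in all pools and was not tested.

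Group profiles of the members were set side by side as the root mean square log2 difference of 6 group means after centring each gene. Cyp2c29 and Cyp2c50 were the closest pair (0.10), followed by Cyp2c37 and Cyp2c54 (0.12) and by Cyp2c23 and Cyp2c70 (0.13). Cyp2c55 was 1.73 to 2.08 from the others. The windows of Cyp2c37 and Cyp2c50, the most alike of those printed above, belong to a pair at 0.21, and those of Cyp2c29 and Cyp2c38 to a pair at 0.30.

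Within single diets fewer genes passed, by limma with Benjamini-Hochberg adjustment. On lard 5 of 8 rose (0.898% of all genes): Cyp2c55, Cyp2c54 (0.85 ± 0.16, adjusted p = 0.0152), Cyp2c50 (0.51 ± 0.10, 0.0164), Cyp2c29 (0.52 ± 0.10, 0.0261) and Cyp2c37 (0.86 ± 0.18, 0.0332). On canola oil Cyp2c55 alone among the 8 rose (0.0557% of all genes), and on fish/fungal oil Cyp2c55 and Cyp2c29 (0.65 ± 0.10, adjusted p = 0.00923) did (0.254%). In each diet 5 of the 8 had an unadjusted p under 0.05, as did 1325 of the 12578 genes on lard, 772 on canola oil and 959 on fish/fungal oil. Cyp2c54 on fish/fungal oil, at 0.73 ± 0.16 (adjusted p = 0.0598), did not pass. It passed when fitted on the fish/fungal arrays alone (0.00568), with a filter at the 75th percentile (0.0494), and without control canola replicate 1 or 3 or knockout canola replicate 2 or 3 (0.0219 to 0.0460), and the fish/fungal count was then 3. The pools did not overlap, with the knockout higher, for 5 genes on lard (9.14% of all genes), 4 on canola oil (7.04%) and 5 on fish/fungal oil (5.72%). Single pools decided several of these calls. The lard count was 1 without control lard replicate 1, control lard replicate 2 or knockout lard replicate 2, and 2 without knockout lard replicate 3. The canola count was 2 without knockout canola replicate 3, and Cyp2c29 on fish/fungal oil was at 0.60 (adjusted p = 0.0577) without knockout fish/fungal replicate 3. Fitted on the lard arrays alone the lard count was 3, and with array weights the canola count was 4.

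**Figure D2:**
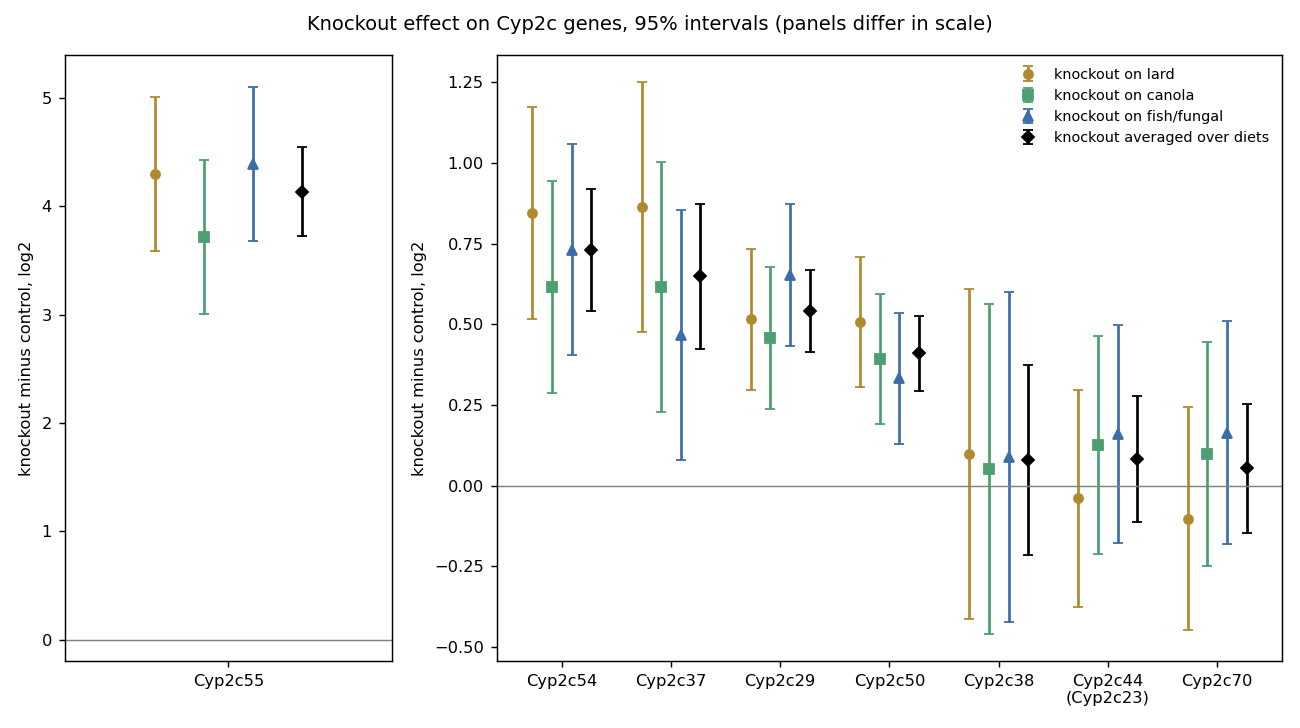
Log2 difference of knockout and control for the 8 Cyp2c genes tested, on each diet and averaged over diets, as limma estimates with 95% intervals; Cyp2c55 has a panel and scale of its own. The averaged intervals of Cyp2c54, Cyp2c37, Cyp2c29 and Cyp2c50 lie above 0 and those of Cyp2c38, Cyp2c44 (Cyp2c23) and Cyp2c70 include it.

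Whether the knockout difference itself depended on the diet was asked with an F test of the interaction. It called 0 of the 8 genes and 0 of all 12578 (percent called 0), with 0 and 242 at an unadjusted p under 0.05. The p-values of the 8 genes ran from 0.327 (Cyp2c37) to 0.990 (Cyp2c38). For Cyp2c55 the knockout difference on fish/fungal oil was 0.67 above that on canola oil, with a 95% interval from -0.34 to 1.68. For Cyp2c37 it was 0.40 lower on fish/fungal oil than on lard (estimate -0.40, interval -0.95 to 0.15). A count within a diet is therefore not shown to differ between diets.

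The second question was whether the fat in the diet moved these genes. The smallest adjusted p of the 8 genes was that of Cyp2c37 in control mice on fish/fungal oil against lard. In controls no Cyp2c gene passed the limma test between fish/fungal oil and lard (0.716% of all genes called), between fish/fungal and canola oil (0.262%) or between canola oil and lard (0), with 3, 1 and 1 of the 8 at an unadjusted p under 0.05 and 1003, 826 and 579 of all genes. In knockouts none passed either (0.461%, 0.159% and 0 of all genes called), with 1, 2 and 1 at an unadjusted p under 0.05 and 1076, 745 and 607 of all genes. Cyp2c37 was 0.74 ± 0.18 higher on fish/fungal oil than on lard in controls (1.67-fold, adjusted p = 0.0862), and the 3 fish/fungal pools were all above the 3 lard pools. It passed without control lard replicate 3 (0.92, adjusted p = 0.0340) and without control canola replicate 1 (0.74, 0.0449). In knockouts the same difference was 0.35 ± 0.18 (adjusted p = 0.665), with overlapping pools. For Cyp2c54 the diets differed by 0.46 ± 0.16 in controls (adjusted p = 0.328), without overlap, and by 0.34 ± 0.16 in knockouts (0.545). For controls on fish/fungal oil against lard, 2 of 8 genes were higher without overlap (6.20% of all genes). In knockouts Cyp2c55 was 0.94 ± 0.34 higher on fish/fungal than on canola oil (adjusted p = 0.619) and Cyp2c70 0.35 ± 0.16 (0.830). The contrasts of fish/fungal oil with lard and with canola oil share the fish/fungal pools, and the lard and canola control pools also enter the knockout differences.

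A comparison added after seeing the data took each diet difference as the mean of both genotypes. For fish/fungal oil against lard 2.32% of all genes passed, and Cyp2c37 alone among the 8 rose, by 0.54 ± 0.13 (1.46-fold, limma adjusted p = 0.0329). It did not pass without control lard replicate 1 or 2, without any 1 of the control fish/fungal replicates, or without knockout lard replicate 1 or 2 or knockout fish/fungal replicate 3 (adjusted p up to 0.101). Cyp2c54 was at 0.40 ± 0.11 (adjusted p = 0.0706) and passed without control lard replicate 3, control canola replicate 1 or knockout canola replicate 3 (down to 0.0363). For fish/fungal against canola oil, where 0.986% of all genes passed, 0 of the 8 did and 5 had an unadjusted p under 0.05. The count of all genes at that unadjusted level was not taken, and Cyp2c38 among the 5 was lower (-0.38). These comparisons reuse the arrays of the separate ones.

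**Figure D3:**
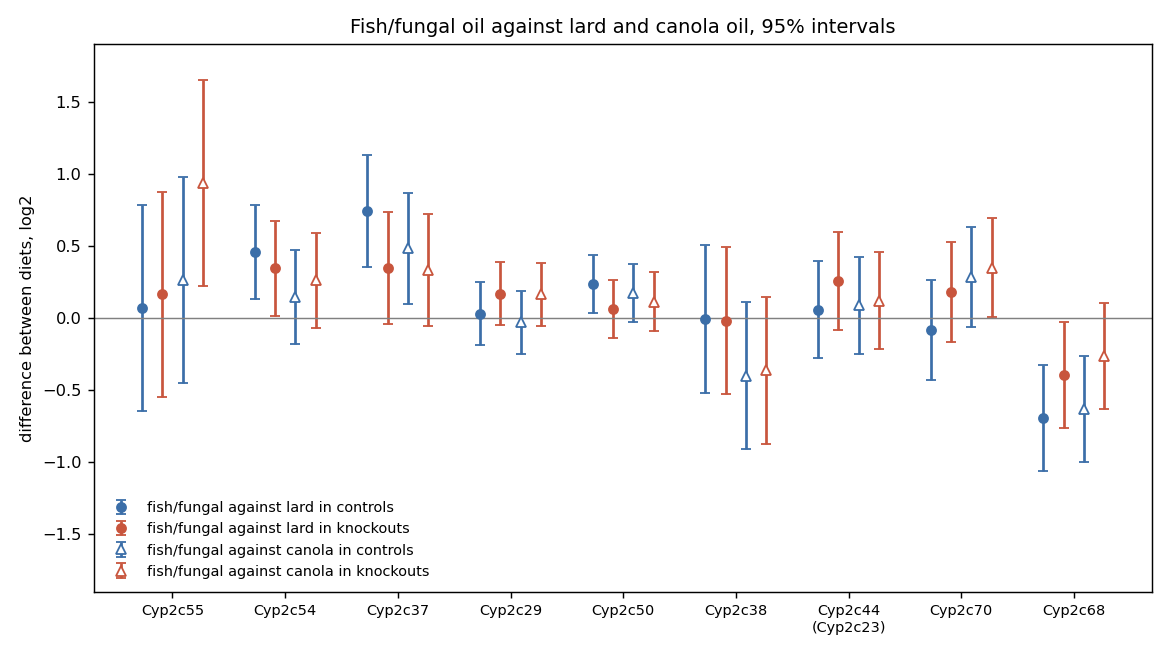
Log2 difference between fish/fungal oil and lard (filled circles) or canola oil (open triangles) in controls (blue) and knockouts (red), as limma estimates with 95% intervals, for the 8 Cyp2c genes tested and the related gene Cyp2c68, whose probe set was not tested for reading Cyp2c40 too. The estimates of 5 of the 8 genes (Cyp2c37, Cyp2c54, Cyp2c50, Cyp2c55 and Cyp2c23) lie above 0 and those of Cyp2c68 below 0 in all 4 comparisons, and no adjusted p passes. The comparisons share pools, and the share of all genes with the same sign in all 4 was not counted.

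Of 29 genes tested of receptors and factors known to drive Cyp2c genes, 0 were higher and 1 lower in the averaged knockout. Over all genes 3.82% were higher and 0.755% lower. Of the 29, 4 had an unadjusted p under 0.05, as did 2262 of all 12578 genes. The lower gene was the liver factor gene Foxa3, which fell by 0.28 (SE 0.07, limma adjusted p = 0.0317). The CAR gene Nr1i3 differed by 0.02 ± 0.11 (adjusted p = 0.947) and the PXR gene Nr1i2 by 0.26 ± 0.12 (0.269). Nr1i3 was 0.56 ± 0.19 higher on fish/fungal oil than on lard in controls (limma adjusted p = 0.325). Its pools were barely apart, the nearest being at 9.323 on lard and 9.325 on fish/fungal oil. In this comparison 6.20% of all genes were higher without overlap. Transcript levels do not measure receptor activity.

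Of the genes outside the family that CAR or PXR are known to induce, 18 of 29 tested rose and 0 fell in the averaged knockout. Their median was 0.38, and over all genes 3.82% rose with a median of -0.0047. Within a diet 11 of the 29 rose on lard (0.898% of all genes), 3 on canola oil (0.0557%) and 6 on fish/fungal oil (0.254%). The interaction test called 0 of all 12578 genes, so these counts are not shown to differ between diets. The largest averaged rises were those of the P450 gene Cyp2b10 (4.91 ± 0.28, 30.1-fold), the glutathione transferase gene Gstm3 (3.04 ± 0.20, 8.23-fold), and the transporter genes Slco1a4 (1.63 ± 0.19, limma adjusted p = 0.000106) and Abcb1a (1.23 ± 0.15, 0.000188). Between fish/fungal oil and lard 0 of the 29 passed limma's test in either genotype, with 11 in controls and 5 in knockouts at an unadjusted p under 0.05.

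Genes whose group profile was nearest to that of a Cyp2c gene were taken over 6 group means, for the 3 members whose means spanned at least 1 log2 unit. Nearest to Cyp2c55 were Cyp2b10 (root mean square difference 0.42), Gstm3 (0.59) and Nebl, which encodes an actin-binding protein (0.94). In knockout canola replicate 3, the lowest knockout pool for Cyp2c55, these genes too had the lowest value of their group: Cyp2b10 8.14 against 11.08 and 10.57, Gstm3 11.64 against 13.22 and 12.12, and Nebl 4.45 against 6.12 and 5.94. They were picked by group means that include this pool, so their low values in it are not independent of the choice. The share of all genes lowest in this pool was not counted. Cyp2c29, Cyp2c37, Cyp2c50 and Cyp2c54 also had their lowest canola knockout value in this pool. So did Cyp2c38 (8.90 against 9.31 and 9.40), which did not pass between genotypes, and Cyp2c39 (4.47 against 4.96 and 4.66), which was not tested, while Cyp2c23 and Cyp2c70 did not. Nearest to Cyp2c37 were Znf41-ps (0.052), the transporter-like gene Flvcr2 (0.11) and Ephx1 (0.12). Nearest to Cyp2c54 were Entpd5, a nucleotidase of the endoplasmic reticulum (0.073), 4930459C07Rik (0.099) and Flvcr2 (0.0998). Znf41-ps (group means 4.96 to 6.14) and 4930459C07Rik (4.39 to 5.28) lay near the array medians. Their SDs of 3 pools reached 0.34 and 0.69, well above these distances.

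**Figure D4:**
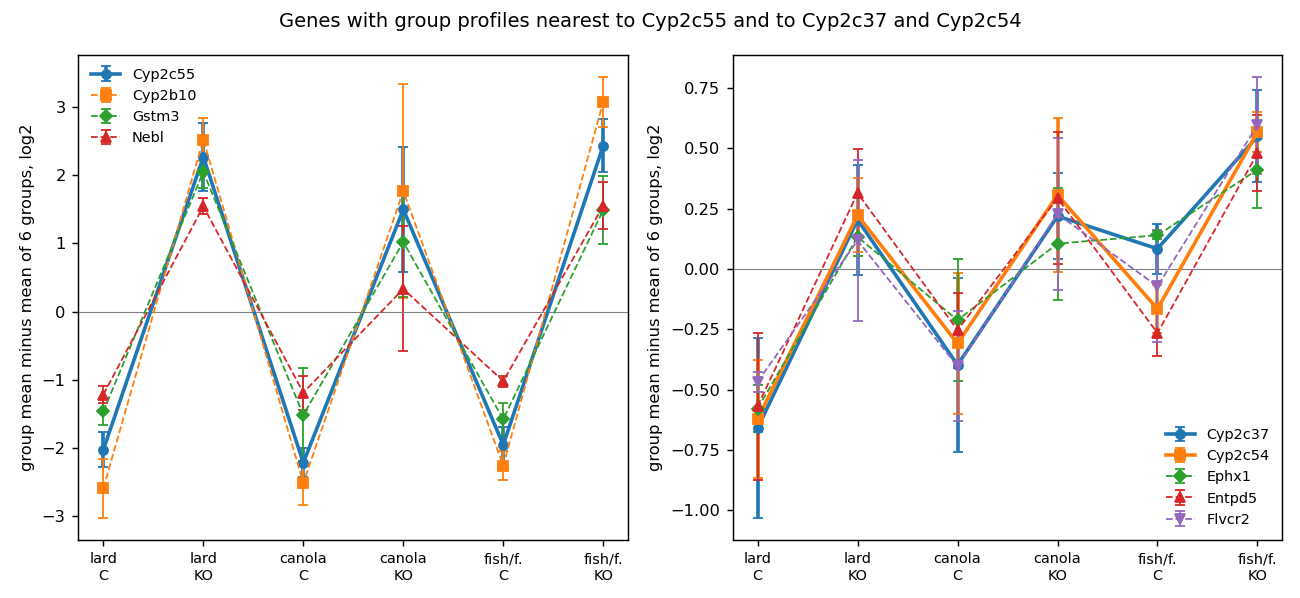
Group means of Cyp2c55 (left) and of Cyp2c37 and Cyp2c54 (right) with the genes nearest to them in profile, each centred on its own mean over the 6 groups; bars are the SD of 3 pools and lines join groups only to guide the eye. Over the 6 groups the root mean square difference of Cyp2b10 from Cyp2c55 is 0.42, and the widest bar of Cyp2b10 is that of knockouts on canola oil.

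The enzymes around the Cyp2c reactions changed in part. Over all genes tested 3.82% rose in the averaged knockout, with a median of -0.0047. In the list of epoxide and eicosanoid genes 6 of 27 tested rose in it and 0 fell (median 0.07). They were the microsomal epoxide hydrolase gene Ephx1 (0.43 ± 0.07, adjusted p = 0.00163), the phospholipase genes Pla2g6 (0.50 ± 0.13, 0.0423), Pla2g12a (0.45 ± 0.09, 0.00634) and Pla2g15 (0.41 ± 0.09, 0.0149), the P450 gene Cyp4f16 (0.26 ± 0.06, 0.0177) and the prostaglandin dehydrogenase gene Hpgd (0.38 ± 0.10, 0.0422). The soluble epoxide hydrolase gene Ephx2, whose product takes most fatty acid epoxides, was at -0.06 ± 0.04 (0.494), and the epoxygenase gene Cyp2j5 at 0.0008 ± 0.05 (0.996). Ephx1, which had a profile near that of Cyp2c37, was at 11.72, 11.52 and 11.62 in control lard pools and at 12.33, 12.36 and 12.33 in control fish/fungal pools. It rose by 0.72 ± 0.12 between these diets (adjusted p = 0.00615), and in knockouts the difference was 0.28 ± 0.12 (0.537). Among genes of electron transfer and heme, 1 of 9 rose in the averaged knockout, the heme oxygenase gene Hmox1 (0.63 ± 0.12, adjusted p = 0.00467). The gene of cytochrome b5, Cyb5a, which also passes electrons to P450 enzymes, was at 0.11 ± 0.03 (0.0577).

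Of the markers of other cells and liver zones, 8 of 16 for macrophages and 3 of 13 for pericentral hepatocytes rose in the averaged knockout, as given above. The mean over 16 macrophage markers ran from 8.24 to 8.61 in control lard and 9.10 to 9.19 in knockout lard, from 8.14 to 8.59 and 8.48 to 8.86 on canola oil, and from 8.64 to 8.69 and 8.52 to 9.17 on fish/fungal oil. The genotypes thus overlapped on canola and fish/fungal oil and not on lard. The mean over 13 pericentral markers ran from 9.93 to 10.04 in control lard and 10.14 to 10.52 in knockout lard, from 9.83 to 10.26 and 10.21 to 10.30 on canola oil, and from 9.92 to 10.08 and 10.01 to 10.45 on fish/fungal oil, with overlap on the same 2 diets. Of the pericentral genes that rose, Cyp1a2 (0.63 ± 0.11) is also on the list of CAR and PXR targets, while Oat (0.42 ± 0.08) and Rhbg (0.70 ± 0.13) are not. The other pericentral markers did not pass and ran from -0.004 ± 0.02 (Cyp2e1) to 0.46 ± 0.15 (Aldh3a2), with Glul at 0.14 ± 0.06. The median over the 13 was 0.18, against -0.0047 over all genes. The part of these cell types in the rise of Cyp2c29, Cyp2c37, Cyp2c50, Cyp2c54 and Cyp2c55 was not tested. For Cyp2c55, which the gut also expresses, intestinal markers were read as well: 6 of 9 lay below the array median on all 18 arrays, and of the 3 tested 0 passed between genotypes by limma (1 at an unadjusted p under 0.05). The intestinal fatty acid binding protein gene Fabp2 was lower on fish/fungal oil than on lard in controls (-1.08 ± 0.16, adjusted p = 0.00224) and knockouts (-0.86 ± 0.16, 0.0234). Over all genes 0.620% were lower in controls and 0.421% in knockouts. The other intestinal genes tested had estimates above 0 and did not pass. Lgals4 was at 0.40 ± 0.19 in controls and 0.12 ± 0.19 in knockouts, and Cdx2 at 0.19 ± 0.17 and 0.01 ± 0.17.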

How the data were processed

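Expression was measured on 18 Affymetrix whole-genome mouse arrays, 3 pools of 3 mice in each of 6 groups. The deposited values are log2 expression values, produced by the authors through RMA, according to the submitters' processing notes (version not given in the sources used here); that the scale is log2 was read from the values, 2.409 to 14.89. No array was normalized again. RMA equalizes array distributions, and the number of arrays limits the precision.

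Of 45101 probe sets, 34945 had 1 gene symbol, and symbols were updated against RefSeq (GRCm38.p6; 34741 matched). A gene was tested if its brightest probe set exceeded the array median in at least 3 of 18 arrays (12578 of 18193 genes). limma 3.58.1 in R 4.3.3 fitted 6 group means with an intensity trend; p-values are two-sided and adjusted by Benjamini-Hochberg over all genes tested, with a threshold of 0.05. Scripts were tested on simulated data. Promoter windows were aligned globally with Biopython 1.88.

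All listed Cyp2c genes are named. From each of 5 pathway lists the rule names up to 4 genes past the threshold with the largest averaged knockout change and up to 2 where lard and fish/fungal oil were compared within a genotype, with Nr1i3 and Nr1i2 always. For members spanning at least 1 log2 unit it names the 3 genes nearest in profile. Cyp4f16, Hpgd, Ephx2, Cyp2j5, Cyb5a and the marker genes were named after their values were seen. The members and lists were chosen with earlier results of these data known. Alternatives were repeated quantile normalization, centring, other filters, other choices of probe set, no trend, array weights, only the groups compared, leaving out each array, and a replicate block.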

Additional observations from a re-analysis of the deposited data

How the results depend on the processing

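The count of 5 Cyp2c genes higher in the averaged knockout was 5 under every alternative run, and no result reversed. On lard the count of 5 was 3 with only the groups compared in the fit. On canola oil the count of 1 was 4 with array weights. The count is 1 to 5 on lard, 1 to 2 on canola oil, 1 to 3 on fish/fungal oil and 0 to 1 for fish/fungal oil against lard in controls as each array is left out. Of 3082 values of single genes under an alternative, 3051 kept their side of the threshold, 19 lost and 12 gained a call. The mean levels of groups moved by less than their SD in 108 of 108 cases. Without probe sets prone to cross-hybridization Cyp2c23 has no value. Fitting only the groups compared was not run for the averaged and interaction tests, which use all 6 groups. The causes of these moves were not tested. Probe sets below the array median, such as that of Cyp2c39, limit what a dim gene can show.

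Deviations of same-numbered pools of different groups correlated at -0.40 to 0.46, over 0.1 in 17 of 45 pairs (median -0.0076). For differently numbered pools the median was -0.041. Whether the numbers mark a pairing or a batch shared by some groups was not tested. With the replicate number as a block the counts were 5 averaged, 5 on lard, 1 on canola oil, 2 on fish/fungal oil and 0 in each diet comparison, as without it.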

Other observations

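Outside the 10 listed genes, 2 probe sets were each named for another Cyp2c gene alone. The gene table used names 1 of them for Cyp2c68 alone, but the promoter windows of Cyp2c68 and Cyp2c40 were the same at 93.3% of aligned positions, and whether the probe set also reads Cyp2c40 was not tested, so its values may not be of Cyp2c68 alone. Cyp2c68 went the other way from the genes that rose, at -0.34 ± 0.10 in the averaged knockout (adjusted p = 0.0630, not past the threshold). Cyp2c68 was also lower on fish/fungal oil than on lard, by a log2 value of -0.70 ± 0.17 in controls (limma adjusted p = 0.0883) and -0.40 ± 0.17 in knockouts (0.534). The pools did not overlap in either genotype, where 7.39% of all genes in controls and 6.14% in knockouts were lower without overlap. In knockouts the nearest pools were at 12.03 on lard and 11.97 on fish/fungal oil. Control pools were at 12.41, 12.64 and 12.84 on lard and at 12.01, 11.84 and 11.95 on fish/fungal oil. Cyp2c65, the neighbour of Cyp2c55, lay below the array median on all 18 arrays and was not tested. Its 9 control pools ran from 3.21 to 3.60 and its 9 knockout pools from 3.68 to 4.51, without overlap. Of the genes tested, 0.310% had all 9 knockout pools above all 9 control pools. These values are low on a scale that starts at 2.409. The probe set of Cyp2c65 is of a class prone to cross-hybridization, and whether it reads other Cyp2c genes was not tested.

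In the comparison added after seeing the data, fish/fungal oil against lard as the mean of both genotypes, Cyp2c68 fell, at -0.55 ± 0.12 (limma adjusted p = 0.0228). It did not pass without control lard replicate 2 or 3, control fish/fungal replicate 2 or knockout lard replicate 2 (adjusted p up to 0.0665).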
